A study of Homo sapiens with 9 samples.

Results

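The genes described here encode 3 families of splicing factors, the SR proteins, the heterogeneous nuclear ribonucleoproteins (hnRNPs) and the subunits of SF3A and SF3B. They were chosen by symbol alone, as every gene of the table named SRSF with a number, HNRNP with any ending, or SF3A or SF3B with a number. This gave 46 of 23369 genes, of which 12 were SR protein genes, 25 carried an HNRNP symbol and 9 were SF3 subunits. Among the 25 HNRNP symbols were 3 pseudogenes (HNRNPA1P10, HNRNPA3P1 and HNRNPKP3), the antisense gene HNRNPU-AS1 and the readthrough gene HNRNPUL2-BSCL2. The genes listed under the older symbols HNRPDL and HNRPLL were outside the rule, and SF3B14 is the older symbol of SF3B6.

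RNA came from NCI-H1155, a human large cell lung cancer line with neuroendocrine features. Cells received 1 µM foretinib, 1 µM cabozantinib or the vehicle DMSO, and the labels give 4 h as the time of treatment. Each of the 3 groups held 3 libraries, called biological triplicates in the labels, and the numbers in their titles name them here. Both compounds are multi-kinase inhibitors that block MET and KDR among other kinases. In structure foretinib carries, unlike cabozantinib, a fluorine on its middle phenyl ring, and its quinoline bears a morpholinopropoxy group where cabozantinib has methoxy. All results come from 1 cell line at 1 dose and 1 time.

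Splicing removes introns in a complex of small nuclear ribonucleoproteins that assembles anew on each intron. SR proteins carry RNA recognition motifs and a tail rich in arginine and serine, bind exonic enhancers and recruit the machinery to nearby splice sites. Many hnRNPs bind exonic or intronic silencers and oppose this, although the effect of either class depends on where it binds. SF3A and SF3B are parts of the U2 ribonucleoprotein, which recognises the branch point. Amounts of SR proteins and hnRNPs are known to be held within limits by splicing of their own transcripts into forms that are degraded, and kinases of the SRPK and CLK families phosphorylate the SR tail.

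One pair of members was so alike in sequence that its values need reading together. HNRNPA1 encodes a shuttling hnRNP that promotes exon skipping, and HNRNPA1L2 is an intronless copy of it. In the GENCODE release 29 transcripts (GRCh38, not the build of the authors' files) the coding sequence of HNRNPA1L2 and that of the HNRNPA1 transcript matching it in length were each 960 bases long without the stop codon. They differed at 15 positions, an identity of 98.4%. Of all windows of 50 bases in the HNRNPA1L2 transcript 58.5% were also found, on either strand, in a transcript of another gene, and 47.6% in HNRNPA1 itself. The corresponding share was 25.7% for HNRNPA1, whose windows recurred in 58 other genes or pseudogenes.

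Most members were far less affected by such copies. Of the 46 symbols 45 matched a GENCODE gene, 1 of them by its older symbol, and HNRNPU-AS1 was not matched. Among the 40 matched genes that were tested, the median share of windows found elsewhere was 3.72%, 12 genes shared under 1% and 12 shared over 10%. The other gene with more than 50% was SRSF1, at 57.5%, with AC015813.2 as the gene that shared most. HNRNPUL2 shared 45.2% with its own readthrough transcript, and SRSF9 shared 37.4% and SRSF2 28.8%, mostly with the overlapping neighbours GATC and MFSD11. How the authors' counting treated reads of such regions is not given in the sources used here.

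Values are normalised read counts, that is, reads per gene divided by 1 size factor per library. Recovered totals of gene-assigned reads were 26996023 to 34062153 per library. The test covered the 12642 genes that reached 10 in 3 libraries or more. The foretinib libraries listed 16.3% to 21.02% of these genes at 0, the other 6 libraries 4.41% to 10.9%. Neuroendocrine markers summed to 83081 to 94501 in DMSO, 89191 to 95789 in cabozantinib and 88990 to 98041 in foretinib, with 12 of 14 tested and STMN2 at 0 throughout. Epithelial markers, with 4 of 5 tested and KRT19 at 0 throughout, summed to 3962 to 6554 in DMSO, 4271 to 6674 in cabozantinib and 2603 to 5109 in foretinib, and their part in the results was not tested. Marker sums of fibroblasts, leukocytes, endothelial cells and red cells reached at most 1345, 755, 87.4 and 141 in any library. In bulk RNA of this kind, fewer cells with a transcript and less of it per cell cannot be told apart. Wherever foretinib values are given below, the higher share of genes at 0 in that group goes with them, and its part in the results was not tested.

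Of the 46 members, 41 passed the filter, 12 SR protein genes, 20 HNRNP genes and all 9 SF3 subunits. HNRNPA1P10, HNRNPKP3, HNRNPCL1 and HNRNPUL2-BSCL2 were listed at 0 in all 9 libraries, and HNRNPA3P1 averaged 2.93 over the 9 libraries. Of the tested members only HNRNPU-AS1 had a value of 0 in any library, and 34 had a mean of at least 1000 over the 9 libraries. Together the 46 members took 1.40% ± 0.0708 of the reads in DMSO, 1.40% ± 0.0182 in cabozantinib and 1.36% ± 0.0711 in foretinib (SD, n = 3 libraries per group, as for every mean ± SD below).

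Levels in DMSO are compared between genes per kilobase of coding-transcript exons, with lengths from the GENCODE basic set. On this scale HNRNPA2B1, a reader of exonic and intronic silencers and of RNA sorting signals, came first, at 11067 normalised reads per kb and 9618 to 12516 in single libraries. HNRNPAB followed at 9693 (9488 to 10098) and HNRNPH3 at 9354 (8354 to 10027), so that the ranges of these 3 genes overlapped. Among SR protein genes SRSF9 was highest, at 4055 per kb (3863 to 4318), above SRSF6 at 2627 (2251 to 3024) without overlap. SF3B14, the subunit that contacts the branch point adenosine, led the SF3 genes at 5596 (4959 to 6269). SRSF10, a splicing repressor when dephosphorylated, was the lowest of the tested SR protein genes, at 31.7 per kb (23.7 to 46.4).

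No member passed in any of the 3 comparisons with limma at an adjusted p under 0.05 over all tested genes. The same held for every gene of the table, so that the share called was 0.0% in each comparison. At an unadjusted p under 0.05 limma listed 2 members higher and 2 lower for foretinib against DMSO, or 4 of 41, where 2.17% of all tested genes were higher and 6.9% lower. For foretinib against cabozantinib 1 member was higher and 1 lower, beside 1.83% and 8.08% of all genes. For cabozantinib against DMSO no member was listed, beside 0.878% and 0.435%. edgeR on the recovered reads called 0 genes in each comparison. DESeq2 on these reads called 120 genes higher and 536 lower for foretinib against DMSO. The numbers were 86 and 535 between the 2 compounds, foretinib over cabozantinib, and 38 and 11 for cabozantinib against DMSO. Among its calls was 1 member, SF3B3, in the comparison of the 2 compounds.

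As sums, the 3 families stayed near their DMSO level with a partial exception in the SR proteins. SR protein genes summed to 43673, 43022 and 45720 in DMSO replicates 2, 4 and 5, and to 40664, 43780 and 40897 in cabozantinib replicates 3, 4 and 5. In foretinib replicates 1, 2 and 4 they summed to 40989, 35888 and 37039. All 3 foretinib sums lay below all 3 DMSO sums, while foretinib and cabozantinib overlapped. The group values were 44138 ± 1408 in DMSO, 41780 ± 1736 in cabozantinib and 37972 ± 2675 in foretinib, a ratio of 0.860 for foretinib to DMSO. No test was made of these sums. Such a sum weighs genes by their level. It includes SRSF6, with means of 11360 in DMSO and 8527 in foretinib, and SRSF3, with means of 5934 and 4313. By log2 fold change 3 of the 12 genes were above 0 for foretinib against DMSO.

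The hnRNP sums were 287978 ± 19397 in DMSO, 289547 ± 11034 in cabozantinib and 294652 ± 18454 in foretinib, and the 3 groups overlapped. SF3 subunits summed to 50395 ± 1474, 53825 ± 2151 and 54232 ± 10603 in the same order. The foretinib libraries were both above and below the other groups here, at 51573, 65912 and 45212 in replicates 1, 2 and 4.

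**Figure D1:**
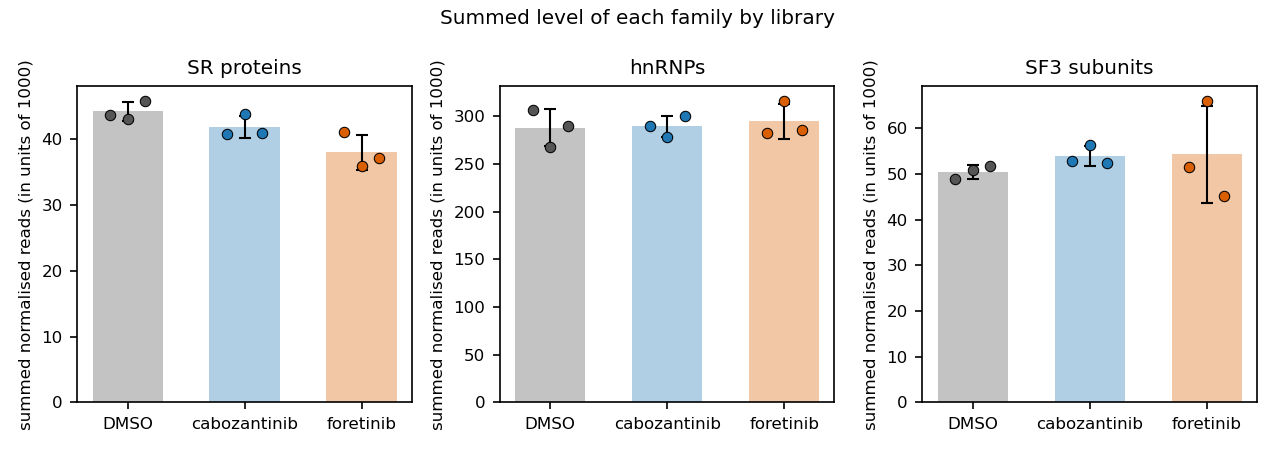
Sums of the values (vertical axis, 1000 normalised reads per unit) over SR protein, hnRNP and SF3 genes, with a dot per library in title-number order, a bar for the group mean and an error bar of 1 SD, n = 3. The 3 foretinib dots of the SR panel, 35888 to 40989, lie below the 3 DMSO dots, 43022 to 45720, and the hnRNP dots of the groups overlap.

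The median log2 fold change of the 41 tested members was -0.06 when foretinib was set against DMSO, 0.02 for cabozantinib against the same DMSO libraries and -0.17 between the compounds, foretinib over cabozantinib. Over all tested genes the medians were -0.34, 0.04 and -0.44. Quantile normalisation moved these to -0.04, 0.01 and -0.05, and those of the 41 members to -0.13, 0.02 and -0.23. Genes with a mean of at least 1000, a level nearer to that of the members, had medians of -0.03, 0.01 and -0.04. The 34 members at that level had -0.04, 0.01 and -0.03. After quantile normalisation all genes of that level had -0.11, 0.02 and -0.12, and these 34 members -0.12, 0.01 and -0.12. The 12 SR protein genes had a median of -0.39 for foretinib against DMSO, with 9 of 12 below 0. Beside this, 8083 of all 12642 tested genes were below 0. Of the 5488 with a mean of at least 1000, a level that 9 of the 12 reached, 2877 were below 0. The median of the SR protein genes was -0.34 for foretinib against cabozantinib, again with 9 of 12 below 0, beside 8387 of 12642 and 2921 of 5488. For cabozantinib against DMSO it was -0.02 with 7 of 12 below 0, beside 5907 of 12642 and 2638 of 5488. These comparisons share libraries and are not separate evidence. The hnRNPs had medians of 0.01 for foretinib and 0.02 for cabozantinib against DMSO, and of 0.05 between the compounds. SF3 subunits had medians of -0.07 for foretinib and 0.10 for cabozantinib against DMSO, and of -0.17 between the compounds. With quantile normalisation, in the same order, the hnRNP medians were -0.08, 0.01 and -0.03, so that both foretinib medians changed sign. SR protein genes then had -0.48, -0.02 and -0.39, and SF3 subunits -0.17, 0.12 and -0.29.

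Among the SR protein genes SRSF6, an activator of exon inclusion, gave the only values without overlap between 2 groups. It was at 13081, 9736 and 11263 in DMSO replicates 2, 4 and 5, and at 8826, 7061 and 9694 in foretinib replicates 1, 2 and 4. All foretinib values were lower, although foretinib replicate 4 lay close to DMSO replicate 4. Cabozantinib values of 10607, 11986 and 9661 overlapped with both groups. The log2 fold change was -0.42 for foretinib against DMSO (SE 0.19, 95% interval -0.83 to -0.002) and did not pass (limma adjusted p = 0.531). It was -0.34 for foretinib against cabozantinib (95% interval -0.75 to 0.07, limma adjusted p = 0.530). The share of all tested genes lower in foretinib than in DMSO without overlap was 7.69%, and SRSF6 was 1 of 41 members, or 1 of 12 SR protein genes. Of the SRSF6 windows 6.41% recurred in another gene.

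SRSF3, the smallest classical SR protein, known for coupling splicing to mRNA export, was uniform in DMSO at 6150, 5852 and 5798. It was at 4249, 6266 and 3715 in cabozantinib and at 6160, 2652 and 4127 in foretinib. One library of each drug group was thus as high as DMSO and the other two were lower. The log2 fold change was -0.54 for foretinib (95% interval -1.21 to 0.12, limma adjusted p = 0.536) and -0.36 for cabozantinib (95% interval -1.02 to 0.31, limma adjusted p = 1.000), each against DMSO.

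SRSF7, a zinc knuckle SR protein that also acts in mRNA export, was at 2623, 4260 and 4115 in DMSO, 4014, 4218 and 3612 in cabozantinib and 1899, 4078 and 2059 in foretinib. Foretinib replicates 1 and 4 were the lowest 2 of the 9 libraries, and foretinib replicate 2 was among the high ones. Foretinib differed from cabozantinib by -0.65 (95% interval -1.37 to 0.08, limma adjusted p = 0.519) and from DMSO by -0.51 (95% interval -1.24 to 0.22, limma adjusted p = 0.583).

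SRSF4, an SR protein with a long arginine-serine tail, was at 2521, 2132 and 2288 in DMSO, 2168, 2311 and 3446 in cabozantinib and 2276, 1382 and 1872 in foretinib. Foretinib replicate 1 lay within the range of the other groups, and its log2 difference from cabozantinib as a group was -0.52 (95% interval -1.27 to 0.23, limma adjusted p = 0.579). SRSF5, which is induced by insulin signalling in other cells, was at 4443, 3565 and 3964 in DMSO, 4246, 2002 and 2650 in cabozantinib and 2433, 5926 and 3793 in foretinib. Its cabozantinib values gave a fold change of -0.49 against DMSO (95% interval -1.27 to 0.29, limma adjusted p = 1.000), with cabozantinib replicate 3 inside the DMSO range.

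SRSF9 and SRSF11 showed no common direction. SRSF9, an SR protein with a short tail, was at 4639, 5185 and 4787 in DMSO, 3591, 4503 and 5108 in cabozantinib and 6270, 7752 and 2647 in foretinib, where it held both the 2 highest values and the lowest. SRSF11, an SR-related factor found at nuclear speckles, was at 1561, 2214 and 3070 in DMSO, 2451, 2955 and 2779 in cabozantinib and 2479, 2262 and 3606 in foretinib. Its fold change for cabozantinib against DMSO was 0.31 (95% interval -0.43 to 1.05, limma adjusted p = 1.000).

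The remaining SR protein genes overlapped between all groups. SRSF1, the founding member of the family, averaged 3818 ± 631 in DMSO, 3819 ± 331 in cabozantinib and 3219 ± 2030 in foretinib, where replicate 2 was at 905 and replicates 1 and 4 were at 4699 and 4053. SRSF2, which recognises exonic enhancers of mixed base composition, had its low value in the same library, at 1467 against 3228 to 4373 in the other 8. SRSF8, SRSF10 and SRSF12 were low, with means over the 9 libraries of 976, 239 and 925. Of the 9 SR protein genes with a mean of at least 1000, 5 had their lowest value of all libraries in foretinib replicate 2, while over all tested genes of that level this library was the lowest for 17.7%. Without it the foretinib sum of the SR protein genes was 39014, still below the DMSO mean of 44138.

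**Figure D2:**
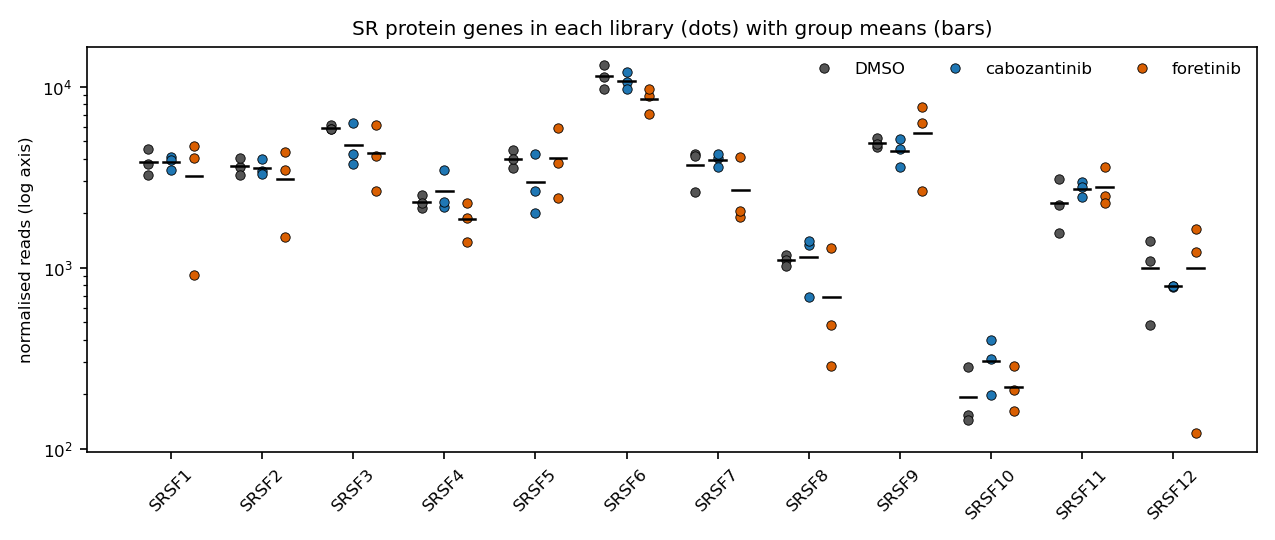
Normalised reads (log axis) of the 12 SR protein genes in each library, as dots coloured by group with a short bar for the group mean. SRSF6 is the gene whose foretinib dots all lie below its DMSO dots, and single low foretinib dots are seen for SRSF1 (905), SRSF2 (1467) and SRSF12 (122).

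HNRNPA1L2 had the largest ratio of any member that was above 0 in all libraries. It was at 271, 366 and 56.8 in DMSO, 350, 725 and 690 in cabozantinib and 1279, 622 and 1270 in foretinib. The 3 foretinib values lay above the 3 DMSO values, and cabozantinib overlapped with both. Foretinib averaged 4.57 times the DMSO mean, and the log2 fold change was 2.49 (SE 1.01, 95% interval 0.32 to 4.66), which did not pass (limma adjusted p = 0.523). It was 1.67 without DMSO replicate 5, the library at 56.8. For cabozantinib against DMSO the fold change was 1.64 (95% interval -0.52 to 3.81, limma adjusted p = 1.000), and 0.83 without that library.

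HNRNPA1 itself was at 2556, 3262 and 6073 in DMSO, 6037, 5682 and 4981 in cabozantinib and 2036, 3891 and 4548 in foretinib. All 3 foretinib values lay below the 3 cabozantinib values, a log2 difference of -0.75 (95% interval -1.53 to 0.03, limma adjusted p = 0.512), and DMSO overlapped with both groups. With the replicate number as a block this difference was 0.083, on the other side of 0. Foretinib replicate 1 and cabozantinib replicate 3 share their number with no other library and so added nothing to that estimate. Only replicate 4 is in both groups, at 4548 in foretinib and 5682 in cabozantinib, and the estimate also draws on DMSO libraries. Cabozantinib differed from DMSO by 0.58 (95% interval -0.19 to 1.36, limma adjusted p = 1.000). In 9.7% of all tested genes foretinib was lower than cabozantinib without overlap, and HNRNPA1 was the 1 of 41 members. The reads of the pair together were 4195 ± 1723 in DMSO, 6155 ± 419 in cabozantinib and 4549 ± 1252 in foretinib. HNRNPA1L2 made up 9.59%, 10.1% and 0.926% of this sum in the DMSO libraries, 5.47%, 11.3% and 12.2% in the cabozantinib libraries and 38.6%, 13.8% and 21.8% in the foretinib libraries. The 3 foretinib shares were thus the highest of the 9. Because the 2 coding sequences differ at so few bases, how reads were divided between the genes is uncertain.

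Other A and B type hnRNPs overlapped between all groups. HNRNPA2B1, with 1.52% of its windows found elsewhere, was at 74408, 57181 and 65791 in DMSO, 63826, 58087 and 69067 in cabozantinib and 64425, 68919 and 66913 in foretinib, and every pair of groups overlapped. HNRNPA3, a close relative, was at 10570, 10909 and 12076 in DMSO, 11601, 12844 and 15389 in cabozantinib and 12390, 14574 and 11431 in foretinib. Its fold change for cabozantinib against DMSO was 0.24 (95% interval -0.13 to 0.61, limma adjusted p = 1.000). HNRNPA0, an hnRNP that binds AU-rich elements, was at 4152, 4083 and 2724 in DMSO, 4351, 3424 and 2232 in cabozantinib and 1789, 4251 and 1328 in foretinib. Foretinib replicates 1 and 4 were below the other 7 libraries, and the fold change against DMSO was -0.73 (95% interval -1.64 to 0.18, limma adjusted p = 0.542).

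HNRNPC, which binds uridine tracts and keeps cryptic Alu exons out of mRNA, was higher in all 3 foretinib than in all 3 cabozantinib libraries. It was at 14248, 9321 and 9384 in foretinib, 8564, 8435 and 9035 in cabozantinib and 8451, 11132 and 10162 in DMSO. The difference was 0.31 (95% interval -0.13 to 0.75, limma adjusted p = 0.568) and 0.11 without foretinib replicate 1, the library at 14248. HNRNPR, an hnRNP of nucleus and axons, was outside the naming rule and is given because its foretinib values, 21090, 19717 and 22516, lay above its DMSO values, 17505, 15911 and 19477. With HNRNPA1L2 and SF3B3 it made 3 of 41 members higher in foretinib than in DMSO without overlap, beside 3.99% of all tested genes. HNRNPC and SF3B3 were the 2 members higher in foretinib than in cabozantinib without overlap, beside 4.49% of all genes. Between cabozantinib and DMSO no member was without overlap, beside 5.18% of all genes higher and 4.71% lower.

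HNRNPU, a scaffold protein of the nuclear matrix, and HNRNPH1, which binds G-rich runs, followed HNRNPA2B1 in mean reads not scaled by length. HNRNPH3 was close behind, with a mean over the 9 libraries of 21971 beside 22430 for HNRNPH1. HNRNPU was at 28836, 24139 and 29990 in DMSO, 28335, 27559 and 31504 in cabozantinib and 22430, 32800 and 25095 in foretinib. HNRNPH1 was at 26183, 22434 and 18963 in DMSO, 19125, 23590 and 22855 in cabozantinib and 22339, 27442 and 18935 in foretinib. Neither gene separated any pair of groups.

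HNRNPU-AS1, transcribed from the strand opposite HNRNPU, was at 196, 798 and 301 in DMSO, 246, 587 and 349 in cabozantinib and 273, 0 and 0 in foretinib. The foretinib library above 0 lay inside the range of the other groups. Its fold change of -5.80 against DMSO (95% interval -11.06 to -0.54, limma adjusted p = 0.528) and of -5.83 against cabozantinib (95% interval -11.10 to -0.57, limma adjusted p = 0.479) rests on the 2 libraries listed at 0 and on the pseudocount of 1. Against DMSO it was -3.61 with a pseudocount of 10, -1.61 with one of 100, -2.25 in DESeq2 and -2.29 in edgeR. Leaving out single libraries gave -8.50 to -4.45 against DMSO and -8.53 to -4.48 against cabozantinib. The strand setting of the counting is not given in the sources used here, so its reads and those of HNRNPU cannot be told apart where the genes overlap.

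The remaining hnRNPs overlapped between all groups. Their lowest and highest values in any library were 9.41 and 942 for HNRNPH2, whose lowest value was in foretinib replicate 4. HNRNPH3 ran from 13784 to 35114, both in foretinib, with replicates 1 and 4 at 14233 and 13784 and replicate 2 at 35114. HNRNPK, a poly(C)-binding protein, stayed between 13553 and 18435, HNRNPM between 15139 and 23476, HNRNPD between 14487 and 21888 and HNRNPAB between 15811 and 22355. HNRNPF ran from 4591 to 8255, HNRNPL from 2172 to 4434, HNRNPUL1 from 14559 to 21638 and HNRNPUL2 from 2368 to 4132.

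SF3B3, a large scaffold subunit of SF3B, had the smallest p of all members. It was at 8948, 9825 and 7236 in foretinib replicates 1, 2 and 4, at 6697, 5153 and 6534 in DMSO and at 6030, 4352 and 5710 in cabozantinib. Every foretinib library lay above the 6 others, and DMSO and cabozantinib overlapped. Foretinib averaged 1.62 times cabozantinib, a log2 fold change of 0.70 (SE 0.22, 95% interval 0.22 to 1.17), and 1.41 times DMSO, a log2 fold change of 0.50 (SE 0.22, 95% interval 0.02 to 0.98). Neither passed with limma, at an adjusted p of 0.381 and 0.531. DESeq2 gave an adjusted p of 0.0292 for foretinib against cabozantinib, and edgeR one of 0.599, in a range of 0.0292 to 0.751 over the alternatives. Only 1.27% of SF3B3 windows recurred in another gene. Cabozantinib and DMSO were at 5364 ± 891 and 6128 ± 848.

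**Figure D3:**
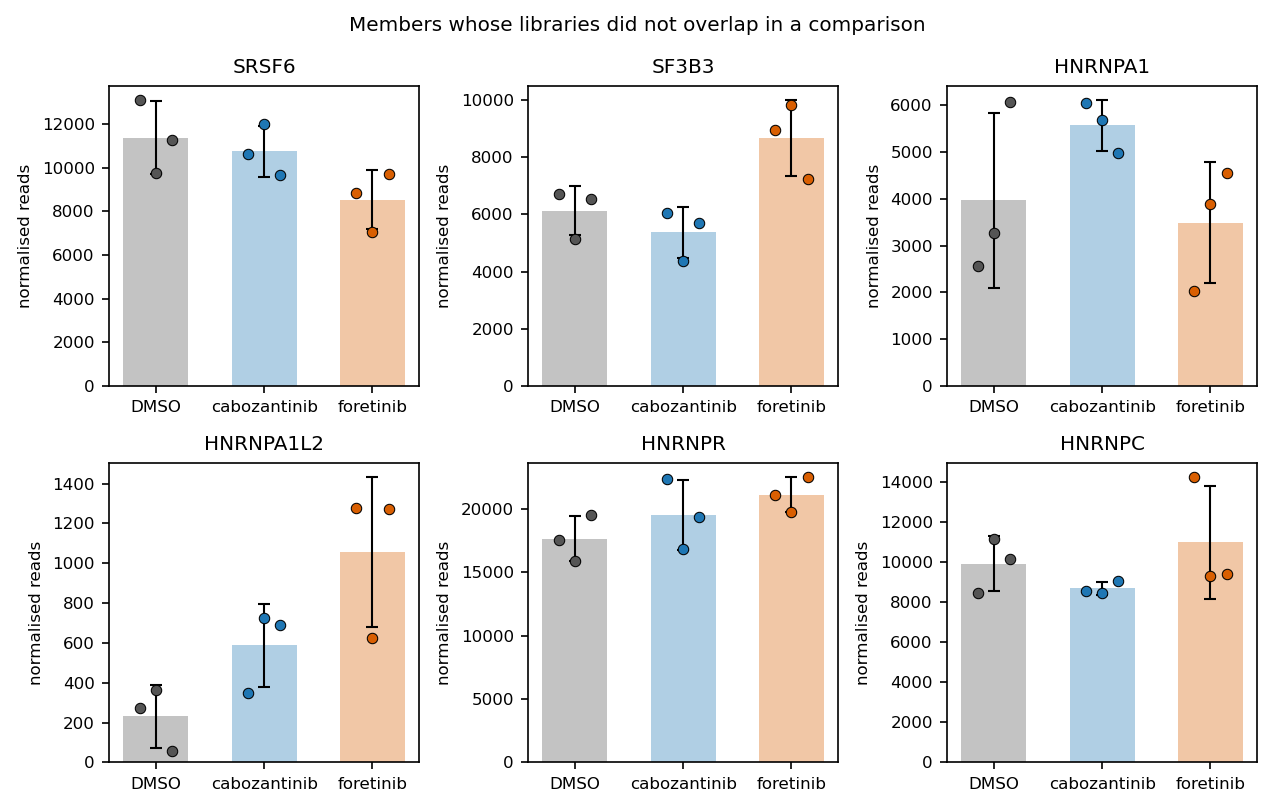
Normalised reads of the 6 members for which 1 group lay wholly above or below another, with a dot per library, a bar for the group mean and an error bar of 1 SD, n = 3. For SF3B3 the 3 foretinib dots (7236 to 9825) lie above the other 6, whereas for SRSF6 they lie below the DMSO dots only.

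Other SF3 subunits did not share this pattern. SF3A3, a zinc finger subunit of SF3A, was at 7079, 4839 and 7603 in DMSO, 6163, 8006 and 8333 in cabozantinib and 7653, 6835 and 11004 in foretinib. Its fold change was 0.38 for foretinib (95% interval -0.15 to 0.91, limma adjusted p = 0.575) and 0.22 for cabozantinib (95% interval -0.31 to 0.75, limma adjusted p = 1.000), both against DMSO. SF3A1, the largest SF3A subunit, was at 3265, 5879 and 4906 in DMSO, 4815, 6791 and 4458 in cabozantinib and 4656, 6762 and 1485 in foretinib. The fold change of -0.34 for foretinib against DMSO (95% interval -1.31 to 0.63, limma adjusted p = 0.781) was 0.30 without foretinib replicate 4, the library at 1485. Against cabozantinib it was -0.55 (95% interval -1.52 to 0.42, limma adjusted p = 0.644) and 0.09 without the same library.

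SF3B1, the subunit that clasps the branch point helix and is mutated in several cancers, was at 11856, 11288 and 13497 in DMSO, 13567, 13225 and 11528 in cabozantinib and 7610, 15180 and 11364 in foretinib. Foretinib held its lowest and its highest value, and the groups overlapped. SF3B2, which binds near the branch site, was at 8860, 10931 and 8019 in DMSO, 10209, 12210 and 10190 in cabozantinib and 8021, 11835 and 6997 in foretinib. It differed by 0.24 for cabozantinib against DMSO (95% interval -0.24 to 0.71, limma adjusted p = 1.000) and by -0.31 for foretinib against cabozantinib (95% interval -0.78 to 0.16, limma adjusted p = 0.594). SF3B5, a small subunit, was at 50.7, 750 and 511 in DMSO, 835, 787 and 451 in cabozantinib and 80.6, 905 and 766 in foretinib. Its fold change of 1.30 for cabozantinib against DMSO (95% interval -1.51 to 4.11, limma adjusted p = 1.000) was 0.11 without DMSO replicate 2, the library at 50.7, and 2.04 without DMSO replicate 4. SF3A2, SF3B4 and SF3B14 overlapped between all groups, with means over the 9 libraries of 3335, 3552 and 4537.

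**Figure D4:**
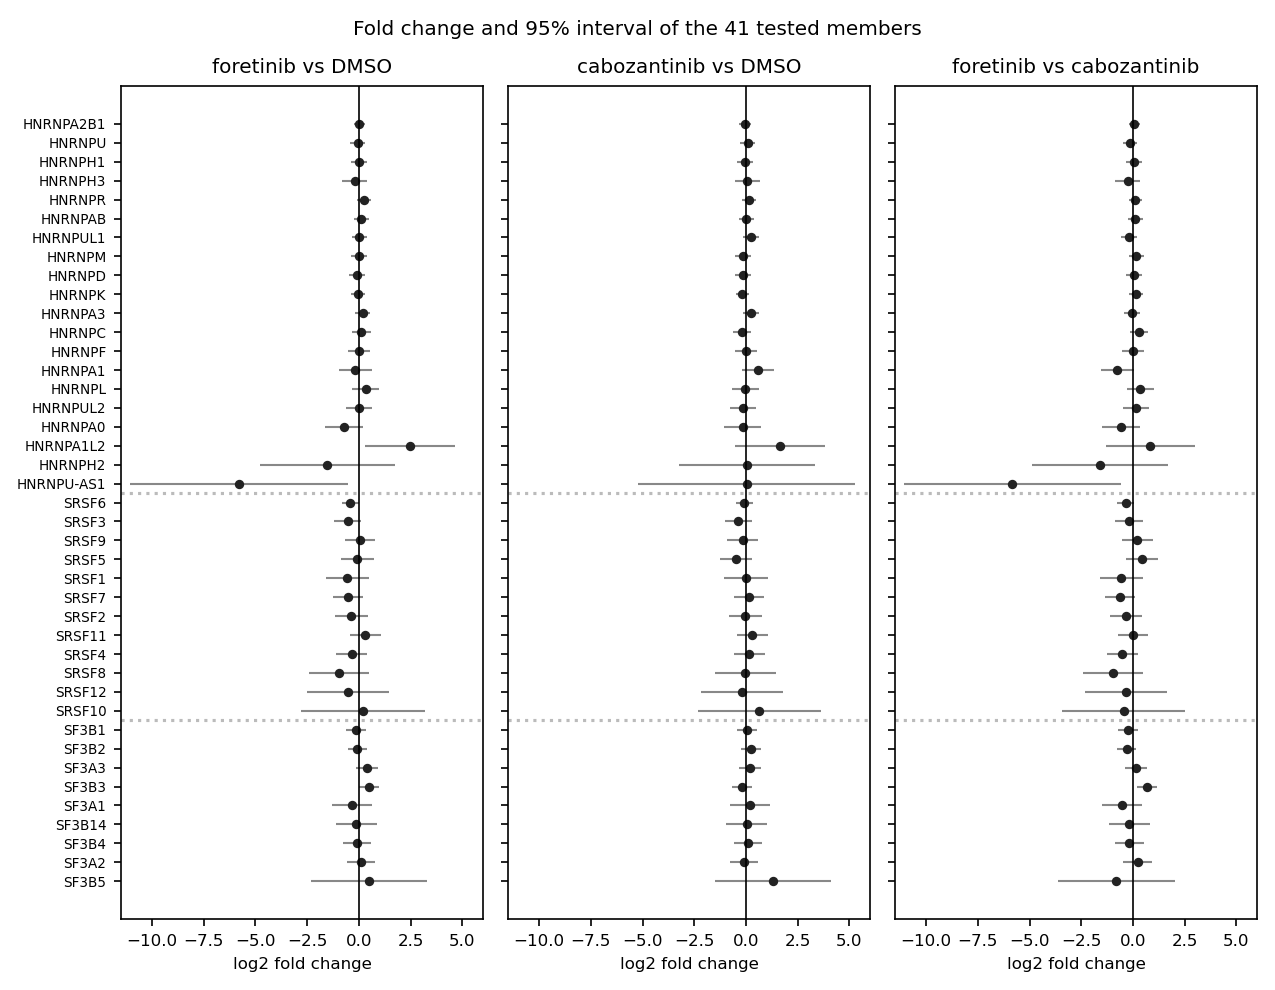
Log2 fold change (dots) and 95% interval (lines) of the 41 tested members in the 3 comparisons, from 1 limma fit of 12642 genes, with hnRNPs, SR proteins and SF3 subunits from top to bottom in falling order of mean. The SR dots lie mostly left of 0 for foretinib (9 of 12 in each of its comparisons), and lines are long for HNRNPU-AS1 and other low genes. Of all 12642 tested genes, 8083 were below 0 for foretinib against DMSO and 8387 for foretinib against cabozantinib.

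The intervals state how large a difference was not excluded. For foretinib against DMSO 25 of 41 members had a 95% interval that stayed within a 2-fold change in either direction, against 13.4% of all tested genes and 31.0% of those with a mean of at least 1000. The number was 26 for cabozantinib against DMSO, beside 16.1% of all tested genes and 37.0% of those at that mean. It was 23 between the compounds, beside 13.1% and 30.2%. It was highest for hnRNPs, at 16, 15 and 14 of 20 in the same order of comparisons. For SR protein genes it was 3, 5 and 4 of 12, so for most of them a 2-fold difference was not excluded by this fit. The fit estimated a common spread per gene over all 3 groups, so intervals for cabozantinib against DMSO also carry the spread between foretinib libraries. SRSF1, for example, had an SE of 0.49 in each comparison, with SDs of 631 in DMSO, 331 in cabozantinib and 2030 in foretinib.

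Libraries of the foretinib group also differed more from each other. Among the 34 members with a mean of at least 1000, the median coefficient of variation was 13.8% in DMSO, 13.9% in cabozantinib and 26.0% in foretinib. It was largest in foretinib for 24 of the 34, or 70.6%, against 67.5% of all tested genes at that level. By family the foretinib medians were 43.5% for SR protein genes, 30.9% for SF3 subunits and 18.7% for hnRNPs, beside 39.9% for all tested genes of that level. The same medians in DMSO were 11.1%, 18.3% and 13.1%, beside 23.2%. The hnRNPs had the higher levels, and how far level accounts for the differences between families was not tested.

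**Figure D5:**
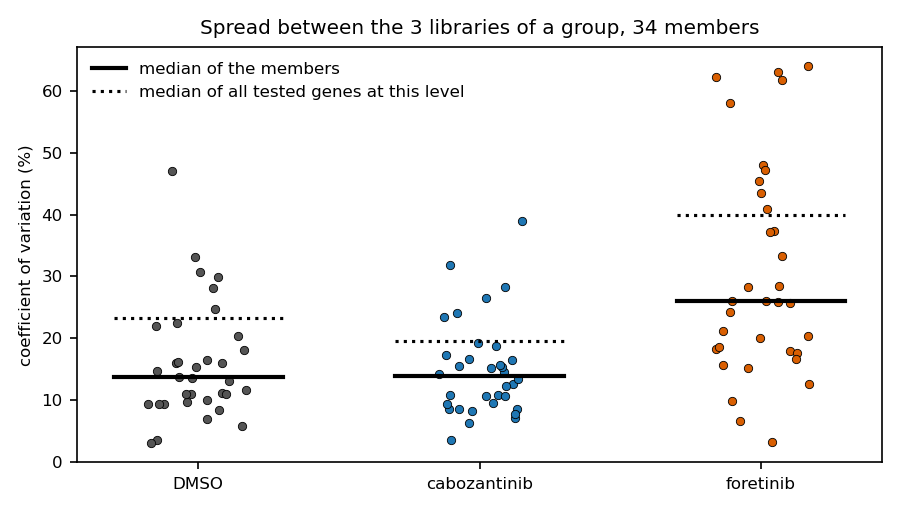
Coefficient of variation (percent) between the 3 libraries of a group for the 34 members with a mean of at least 1000, as dots, with their median (solid line) and the median of all 5488 tested genes of that level (dotted line). The foretinib dots reach from 3.37% (HNRNPA2B1) to 64.0% (HNRNPA0), with a median of 26.0%.

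Other genes of the splicing machinery were read from 7 lists with 125 names in all, of which 119 were tested. None passed with limma in any comparison. At an unadjusted p under 0.05 the lists held 4 genes higher and 6 lower for foretinib against DMSO, 0 and 1 for cabozantinib against DMSO, and 7 and 4 between the compounds, foretinib over cabozantinib. Beside these counts of 119, the shares of all tested genes were 2.17% higher and 6.9% lower, 0.878% and 0.435%, and 1.83% and 8.08%. Their median log2 fold changes were -0.04, -0.002 and 0.01. By list, in that order, the medians were 0.02, 0.01 and 0.04 for 13 genes of the U1 ribonucleoprotein and Sm core. They were 0.05, -0.08 and 0.24 for 14 genes of U2 recruitment and SF3 partners, and 0.07, 6.07e-05 and 0.08 for 21 genes of the tri-snRNP. The Prp19 and catalytic factors (16 genes) had -0.19, -0.03 and -0.25, and the SR-related and exon junction genes (15) had -0.20, -0.03 and -0.21. SR protein kinases and phosphatases with the importin TNPO3 (12 genes in all) had -0.26, -0.06 and -0.09, and the other splicing regulators (28) had 0.02, 0.02 and -0.02.

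From the list of SR protein kinases, phosphatases and TNPO3 and from that of SF3 partners, the 2 genes each with the smallest p gave these values. CLK1, a kinase that phosphorylates SR tails, was at 1720, 2271 and 1308 in foretinib, above 917, 622 and 527 in DMSO and 356, 171 and 704 in cabozantinib. Its difference from cabozantinib was 2.29 (95% interval 0.74 to 3.85, limma adjusted p = 0.378). TNPO3, the importin that carries SR proteins into the nucleus, was at 2160, 728 and 3592 in foretinib, below 3676, 4988 and 6321 in cabozantinib and 5635, 4094 and 3967 in DMSO (-1.45 against cabozantinib, 95% interval -2.46 to -0.44, limma adjusted p = 0.384). Of the 12 genes in their list, 2 were higher and 1 lower in foretinib than in DMSO without overlap, beside 3.99% and 7.69% of all tested genes. Against cabozantinib 1 was higher and 2 were lower, beside 4.49% and 9.7%. U2AF2, which reads the polypyrimidine tract beside the branch point, averaged 10306 ± 971 in foretinib and 7056 ± 1158 in DMSO (0.56, 95% interval 0.12 to 0.99, limma adjusted p = 0.463). SUGP1, an SF3B1 partner, averaged 2932 ± 1211 and 1367 ± 424 (1.07, 95% interval 0.21 to 1.92, limma adjusted p = 0.476).

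The genes with the smallest p in the other lists had the following means, none of which passed. RALY, an hnRNP C relative without an HNRNP symbol, averaged 4986 ± 384 in foretinib, 2411 ± 46.8 in DMSO and 2685 ± 533 in cabozantinib (1.05 against DMSO, limma adjusted p = 0.358). RBM10, a regulator of exon skipping, averaged 5283 ± 2531 in foretinib and 2695 ± 729 in cabozantinib (0.86, limma adjusted p = 0.503). LSM3, of the ring on U6, averaged 2088 ± 208 in foretinib and 4341 ± 256 in cabozantinib (-1.06, limma adjusted p = 0.377). PRPF8, the core of the spliceosome, averaged 24913 ± 1778 and 17445 ± 1008 (0.51, limma adjusted p = 0.378). SNRPB, an Sm protein, averaged 3430 ± 883 and 1796 ± 472 (0.93, limma adjusted p = 0.422), and SNRNP70 of U1 averaged 5046 ± 2411 and 7590 ± 1367 (-0.71, limma adjusted p = 0.512). PRPF19, a ubiquitin ligase of the spliceosome, averaged 8631 ± 2128 and 5798 ± 966 (0.56, limma adjusted p = 0.476). Against DMSO, CDC40 averaged 2784 ± 1151 in foretinib and 1550 ± 519 (0.82, limma adjusted p = 0.531), ACIN1 3952 ± 679 and 5905 ± 514 (-0.59, limma adjusted p = 0.497), and MAGOHB 99.4 ± 166 and 766 ± 284 (-5.51, limma adjusted p = 0.425). The foretinib values of MAGOHB were 291, 0.960 and 6.27, so that its fold change rests on 2 libraries near 0 and on the pseudocount.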

How the data were processed

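The authors deposited 1 signal value per gene and library, which the values show to be reads scaled by a size factor. Tools and build named in the submitters' processing notes are HTSeq, DESeq2, TopHat2 2.0.13, Cufflinks 2.2.1 and hs37d5. Roles, annotation, strand setting and filters are not given in the sources. All values were whole multiples of 1 step per column (tolerance 1e-06 reads), and for 3 columns the step lay near 1. Because the values were deposited as normalised counts, a log-scale test was the main one and count tests served only as alternatives. Here log2(value + 1) of all 9 libraries was fitted with limma 3.58.1 (R 4.3.3, limma-trend, no covariates, Benjamini-Hochberg adjustment over 12642 genes), and the script was tested on simulated data. The simulation gave all groups the same spread, so it did not test the fit under the larger spread of the foretinib libraries. Within groups, chi-square per degree of freedom for pairs of libraries was 121 or more, so none were copies. The p-values judge differences of group means against the spread between these triplicates, estimated over all 3 groups together. Members and gene lists were chosen with earlier results of these data known. Named were, per family and comparison, the 3 members with the smallest p, the 3 per family with the highest mean over the 9 libraries, and 2 genes per other list. Alternatives used other pseudocounts, filters and scalings, edgeR 4.0.16, DESeq2 1.42.0, 6 libraries, a replicate block and leaving out each library. A sequence stretch is not reported here.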

Additional observations from a re-analysis of the deposited data

How the results depend on the processing

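Of 430 alternative values for 27 fold changes of named members, 426 kept direction and side of the threshold, 1 passed it (SF3B3, foretinib against cabozantinib, DESeq2) and 3 changed sign. These were SF3A1 without foretinib replicate 4, at 0.30 against DMSO and 0.092 against cabozantinib (leaving out each library gave -0.79 to 0.30 and -1.001 to 0.092), and HNRNPA1 between the compounds, at 0.083 with the replicate block. Direction could not change with other filters or with only the 6 libraries compared, which leave the fold change as it was. As no named member passed in the main fit, keeping the side of the threshold means only that it was again not called. Of 372 values for 30 counts, medians and sums, 295 kept their size and 77 moved, none of them a family sum. A family sum counted as moved when its group mean shifted by its SD or more, which leaving out 1 of 3 libraries cannot do. Only its TMM value could have moved by that rule, so the count says little about the sums.

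Members at an unadjusted p under 0.05 for foretinib against DMSO numbered 1 higher with TMM and with quantile normalisation, and 0 with edgeR and with only the 6 libraries compared. The lower ones numbered 1 with DESeq2, edgeR and a pseudocount of 10, and 0 with a filter on a higher mean, a pseudocount of 100 and the 6 libraries. For cabozantinib against DMSO 1 was higher with the 6 libraries. Between the compounds DESeq2 called 1 member higher. The lower ones at an unadjusted p under 0.05 numbered 2 with TMM, 3 with quantile normalisation and 0 with edgeR, the mean filter and the 6 libraries. Without overlap, TMM gave 1 higher and 2 lower and quantile normalisation 1 higher and 3 lower. The members' median was -0.056 with DESeq2 and -0.091 with edgeR. The cause of these changes was not tested.

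Leaving out each library gave, for foretinib against DMSO, 0 to 3 members higher and 0 to 3 lower at an unadjusted p under 0.05, 3 to 7 higher and 1 to 5 lower without overlap, and medians of -0.097 to 0.027. For cabozantinib against DMSO it gave 0 to 1 higher at that p, and 1 to 4 higher and 0 to 4 lower without overlap. Between the compounds it gave 1 to 2 higher and 0 to 6 lower at that p, 2 to 5 higher and 2 to 7 lower without overlap, and medians of -0.16 to -0.020. Fewer libraries overlap less by construction.

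Whether the title numbers pair the libraries is not known. Deviations from the group means correlated at -0.002 to 0.03 between libraries with the same number. Between libraries with different numbers they correlated at -0.024 to 0.031. Correlations of this kind show no shared deviation but cannot tell whether libraries were prepared together. With the replicate block 1 member was higher at that p for foretinib against DMSO, and 2 were higher and 2 lower between the compounds, where the median was -0.074. Foretinib replicate 1 and cabozantinib replicate 3 have no other library of their number and add nothing to these differences.

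The 95% intervals of most SR protein genes, from a spread estimated over all groups together, include a 2-fold change. Differences of that size were not excluded for them by this fit.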
